A study of Homo sapiens with 6 samples.

Results

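The clustered protocadherins are cell-surface adhesion proteins whose genes lie in 3 neighbouring clusters, alpha, beta and gamma, on chromosome 5. All rows of the count table whose symbol named a PCDHA, PCDHB or PCDHG gene were taken as members, which gave 54 of 60649 genes: 16 in the alpha cluster, including the pseudogene PCDHA14, 16 in the beta cluster and 22 in the gamma cluster. The members were chosen by symbol, but the family was selected on the known difference of PCDHGC5 between the hairpins and shControl, so that difference is a description here. The RNA came from 786-O cells, a human line grown from a clear cell renal carcinoma and lacking working VHL, the protein that targets hypoxia-inducible factors for destruction. The shRNA1 and shRNA2 groups each carried a short hairpin RNA directed at LINC02068, a long non-coding RNA, and are labelled as its knockdown. The shControl group carried a control hairpin and is labelled wild type. Each of the 3 groups has 2 libraries of total RNA, no other treatment is recorded, and the labels do not say whether the libraries of a group are separate cultures, clones or pools. P-values therefore measure the spread between libraries, which may be technical.

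Each alpha or gamma transcript starts at its own promoter, just upstream of a large variable exon that encodes the extracellular cadherin repeats, the membrane span and part of the cytoplasmic tail. That exon is then spliced to constant exons, common to the cluster, that encode the rest of the tail. Beta genes carry their coding sequence in a single exon and have no constant exons. In neurons, individual cells use different combinations of these promoters, a choice that involves the insulator protein CTCF, cohesin and DNA methylation, and most of the proteins bind copies of themselves on neighbouring cells. The C-type genes (PCDHAC1, PCDHAC2, PCDHGC3, PCDHGC4 and PCDHGC5) stand at the downstream ends of the alpha and gamma clusters, and PCDHGC3 is known to be active in many cells outside the nervous system.

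In GENCODE 29 (GRCh38, all members on the plus strand) the alpha genes span chr5:140786136-141012347, the beta genes chr5:141051135-141249365 and the gamma genes chr5:141330571-141512981. The 3 gamma constant exons hold 59 bases (chr5:141494807-141494865), 89 bases (chr5:141505393-141505481) and 2033 bases (chr5:141510947-141512979). Exons with exactly these ends belong to 22, 22 and 21 of the 22 gamma genes. PCDHGA1, which runs on to base 141512981, also holds all bases of the third. The alpha constant exons hold 59 bases (chr5:140978949-140979007), 89 bases (chr5:140982475-140982563) and 2718 bases (chr5:141009627-141012344). With exactly these ends they belong to 15, 15 and 14 alpha genes. PCDHA1, which runs on to base 141012347, also holds all bases of the third. The first constant exon of each cluster is shown because the counts of all 22 gamma and 15 of the 16 alpha genes can include reads from it. Capitals mark the bases that are the same at the same position in the alpha and gamma exon.
Alpha constant exon 1: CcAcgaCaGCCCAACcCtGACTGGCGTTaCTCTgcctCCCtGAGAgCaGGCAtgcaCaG
Gamma constant exon 1: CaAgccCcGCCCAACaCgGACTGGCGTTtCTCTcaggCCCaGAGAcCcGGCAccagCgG
The first exons matched at 39 of 59 positions (66.1%) and the second exons at 29 of 89 (32.6%). A read wholly inside a constant exon does not name 1 gene of its cluster. The next sequences show where a read does name its gene. Lower case gives the last 30 bases of the variable exon, which ends at base 141478546 in PCDHGC3, 141491700 in PCDHGC5, 141420274 in PCDHGB7, 141410620 in PCDHGB6 and 141415611 in PCDHGA10. Capitals give the first 30 bases of gamma constant exon 1, the same in all 5.
PCDHGC3: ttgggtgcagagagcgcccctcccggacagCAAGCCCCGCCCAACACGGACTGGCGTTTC
PCDHGC5: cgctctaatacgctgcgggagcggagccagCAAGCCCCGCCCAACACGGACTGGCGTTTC
PCDHGB7: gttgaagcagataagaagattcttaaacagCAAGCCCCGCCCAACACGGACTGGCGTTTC
PCDHGB6: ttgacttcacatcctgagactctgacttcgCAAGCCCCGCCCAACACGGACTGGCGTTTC
PCDHGA10: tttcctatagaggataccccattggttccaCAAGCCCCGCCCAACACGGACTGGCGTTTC

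All 16 alpha and all 22 gamma genes shared exon bases with another member, and no beta gene did. The shared part was 43.9% of a gamma gene's exon bases in the median (27.6% to 64.4%) and 46.6% of an alpha gene's (21.3% to 100%, the highest for PCDHA14, which lies wholly over PCDHA10). How the counting step assigned reads in constant exons is not given in the sources used here, so the split of counts between genes of the alpha or gamma cluster is uncertain in a way that the beta cluster is not. Members also resemble each other in sequence outside the constant exons. The share of a gene's own 50-base windows also found exactly elsewhere in the family was 45.7% in PCDHB8, 35.4% in PCDHB10, 23.3% in PCDHB13, 20.3% in PCDHB2 and 14.1% in PCDHB11, and 0% in PCDHB1. It reached 28.1% in the alpha cluster (PCDHA8) and 21.3% in the gamma cluster (PCDHGB4). In the bases that PCDHGC3 and PCDHGC5 do not share through constant exons, it was 0%. Exons of other genes on the opposite strand overlapped 8 alpha, 10 beta and 1 gamma member (PCDHGB1), and the strand setting of the counting is not given either.

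**Figure D1:**
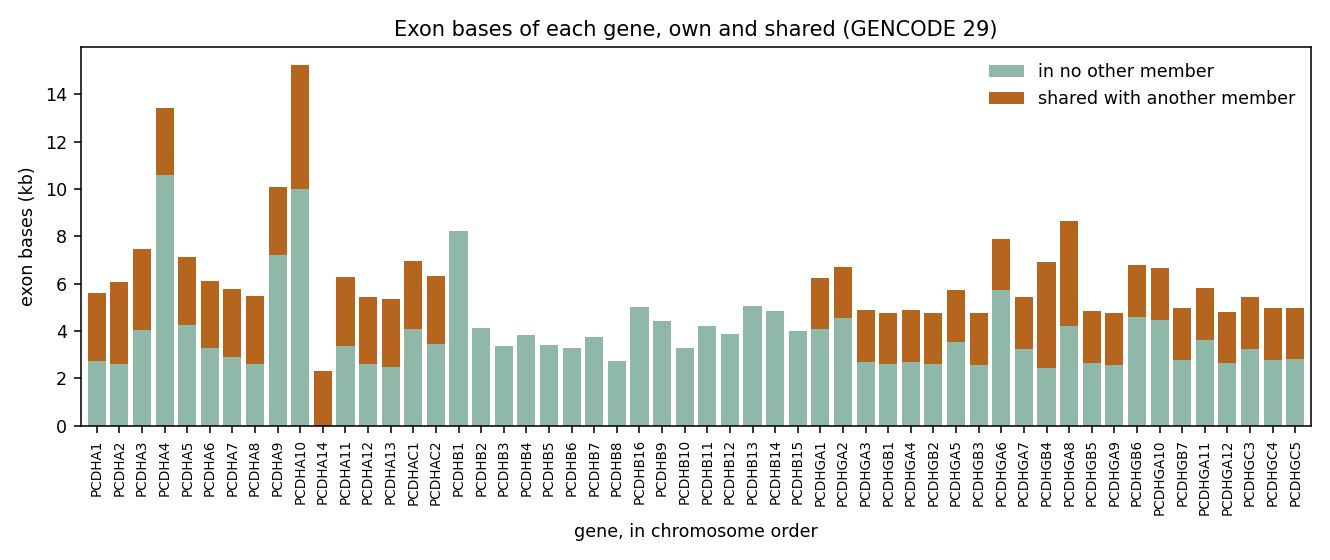
Exon bases (kb) of each of the 54 genes in chromosome order, divided into bases held by that gene alone and bases shared with another member of the family. Every alpha and gamma bar has a shared portion, and no beta bar has one.

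Promoter sequence was available for 47 of the 54 members, as RefSeq windows on GRCh38.p14 that run from 250 bases before to 50 after the gene's start. PCDHA3, PCDHA13, PCDHA14, PCDHB6, PCDHB11, PCDHGA12 and PCDHGC5 had no entry. The letters CGCT, the core of a conserved element of these promoters, stood on either strand in 46 of the 47 members (97.9%), and in 71.9% of 27305 genes with such a window. The longer word CAGCGCCA, chosen because many of these windows were seen to share it, stood on either strand in 12 of 14 beta, 1 of 20 gamma and 0 of 13 alpha windows, against 2.32% of all genes. Every match to it is also a match to CGCT, since its reverse complement holds those letters, so the counts of these words are not separate observations. The bases just upstream of 3 members with values below are shown, one from the C-type genes, one from the PCDHGB genes and one from the beta cluster, each ending before the GENCODE gene start. Capitals mark CGCT on either strand: 6 matches before PCDHGC3 (chr5:141475716-141475946), 2 overlapping matches before PCDHGB7 (chr5:141417427-141417644) and 1 before PCDHB13 (chr5:141213669-141213918), which is also part of its match to CAGCGCCA.
PCDHGC3: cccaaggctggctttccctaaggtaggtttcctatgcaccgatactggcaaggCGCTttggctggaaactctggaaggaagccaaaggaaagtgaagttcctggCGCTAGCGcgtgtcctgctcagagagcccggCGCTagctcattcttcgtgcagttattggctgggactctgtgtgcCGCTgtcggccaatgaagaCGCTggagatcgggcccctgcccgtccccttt
PCDHGB7: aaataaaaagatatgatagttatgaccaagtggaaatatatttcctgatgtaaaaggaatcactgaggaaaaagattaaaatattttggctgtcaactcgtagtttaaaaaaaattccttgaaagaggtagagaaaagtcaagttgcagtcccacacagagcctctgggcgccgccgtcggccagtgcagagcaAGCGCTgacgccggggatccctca
PCDHB13: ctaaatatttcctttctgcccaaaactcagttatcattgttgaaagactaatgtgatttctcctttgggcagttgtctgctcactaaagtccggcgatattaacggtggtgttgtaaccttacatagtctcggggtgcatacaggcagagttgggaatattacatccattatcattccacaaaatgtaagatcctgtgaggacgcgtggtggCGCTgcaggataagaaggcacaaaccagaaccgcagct

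Library totals ran from 15376448 counts (shRNA1 replicate 1) to 37311846 (shRNA2 replicate 1), and 1 CPM (counts-per-million, over library sizes scaled by TMM) stood for 14.9 to 36.0 counts. LINC02068 itself had 9, 2, 17 and 10 counts in the 4 hairpin libraries (shRNA1 replicates 1 and 2, then shRNA2 replicates 1 and 2) and 20 and 32 in the controls. Its level was lower with the hairpins (log2 fold change -1.46 ± 0.59 SE, adjusted p = 0.0447) but passed the test with neither hairpin alone (adjusted p = 0.0690 and 0.148). Of 12 renal and clear cell carcinoma markers 11 were expressed enough to test, with the renal factor PAX8 at 307 CPM in the controls. NDUFA4L2, a marker of clear cell carcinoma, had 49 counts in all. In the mean of both hairpins against shControl 6 of the 11 were higher, 3 lower and 2 not called. Their list summed to 6661 to 6670 CPM in the controls and 8253 to 8399 CPM in the hairpin libraries. Of all tested genes 57.5% were called in that comparison, which the marker lists below also use. The 4 leukocyte markers had no counts. Among 12 neuron markers 6 were tested (2 higher, 2 lower, 2 not called). STMN2, GAP43 and ELAVL4 were at 0, and the summed level was 249 to 259 CPM in the controls and 582 to 603 CPM in the hairpin libraries, mostly from TUBB3 and NEFL. Fibroblast markers summed to 16.4 to 16.6 CPM in controls and 11.8 to 13.2 CPM with hairpins (3 tested, 2 lower), and endothelial markers stayed under 1.52 CPM in every library (2 tested, none called). The part of these markers in the values below was not tested, and in these bulk samples fewer cells of a kind and less RNA per cell cannot be told apart.

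786-O cells made clustered protocadherin RNA almost wholly from the gamma cluster, and most of that was counted to PCDHGC3. With no counts in any library stood 6 alpha, 2 beta and 2 gamma genes. Another 10 alpha, 7 beta and 12 gamma genes had counts too low to test, and 0 alpha, 7 beta and 8 gamma genes passed the filter on low counts. PCDHGC5, which selected the family, is one of the 15. Of the other 14, PCDHGB6, PCDHB9, PCDHB10, PCDHB11 and PCDHB16 reached the filter's level in hairpin libraries only and had to look higher there, so their differences from shControl are also given as descriptions. That leaves 9 members that reached it in at least 1 control library. Of these, PCDHB14, PCDHGA6, PCDHGA9 and PCDHGB2 reached it in only 1 control library. The filter asks for 2 libraries, so each of them passed with the help of a hairpin library. In the mean of both hairpins against shControl, 2 of the 9 were higher (PCDHGC3 and PCDHB13), 1 was lower (PCDHGB7) and 6 were not called, at an adjusted p under 0.05. Of all 16039 tested genes 57.5% were called in that comparison (28.6% higher and 28.9% lower), so the share of called members was under that background. Among the 6 not called, PCDHB14, PCDHGA6 and PCDHGB2 lay near the filter's level. Their means over all libraries were 0.72, 0.56 and 0.69 CPM, and their fold changes had standard errors of 0.59, 0.75 and 0.60 (log2). The lower share is therefore not read as a trait of the family. The median log2 fold change was 0.54 over the 9 members and -0.03 over all tested genes. It is a description, since members that passed with the help of hairpin libraries are among the 9.

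**Figure D2:**
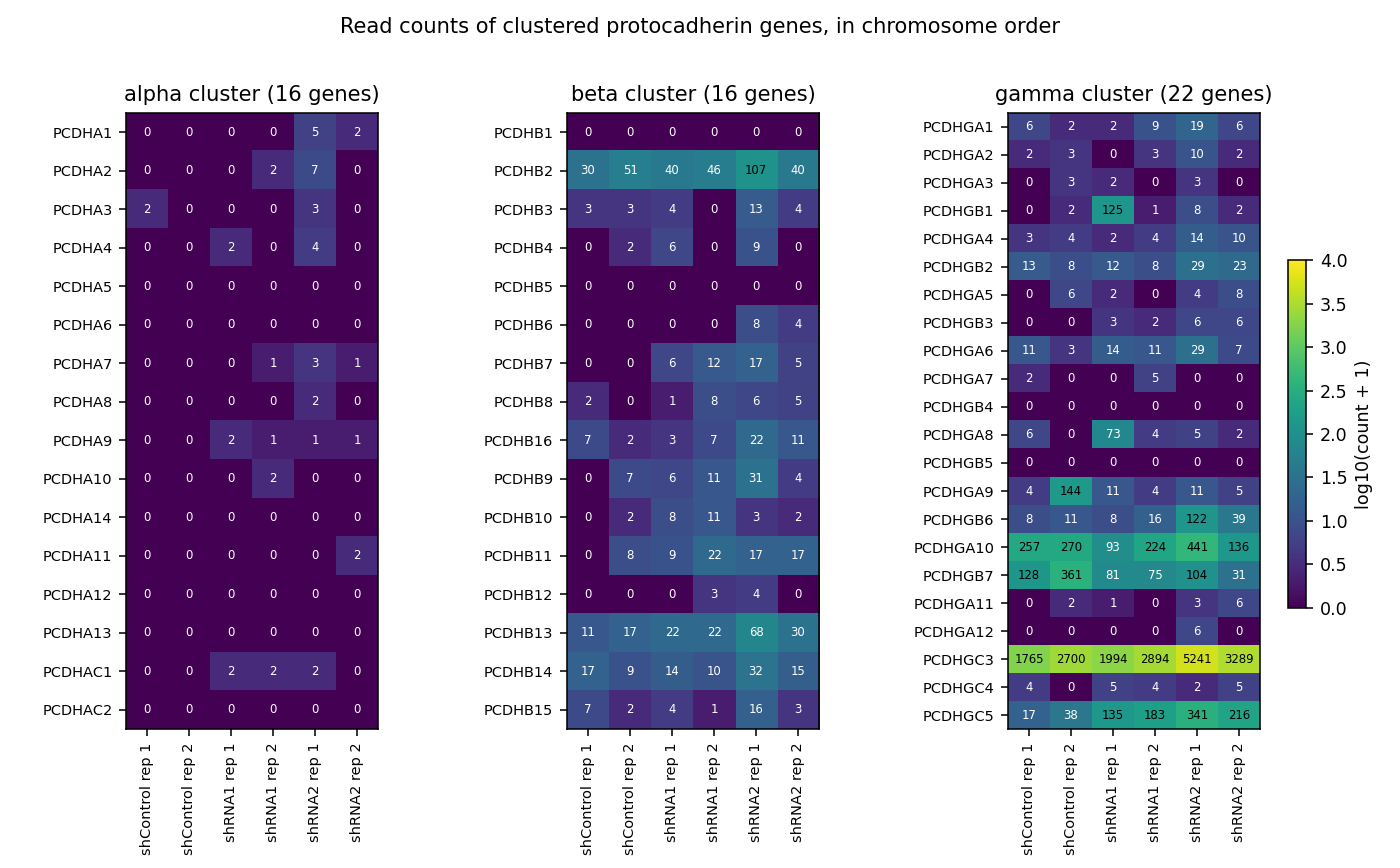
Read counts of the 54 genes (colour, log scale) in chromosome order, with 1 column for each of the 6 libraries. PCDHGC3 holds 1765 to 5241 counts in every library, and the alpha cluster is nearly empty.

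With shRNA1 alone, 1 of the 9 was higher (PCDHGC3) and 1 lower (PCDHGB7), where 52.4% of all genes were called (26.8% higher and 25.6% lower). With shRNA2 alone, 2 were higher (PCDHGC3 and PCDHB13) and 1 lower (PCDHGB7), where 52.8% of all genes were called (26.7% higher and 26.1% lower). Both comparisons use the same control libraries. Between the hairpins, edgeR called 0 of the 15 members and 0.0312% of all genes (0.00623% higher and 0.0249% lower with shRNA1). In that comparison PCDHGB6, PCDHGB7 and PCDHB10 had an unadjusted edgeR p under 0.05. The share of all genes under that cut-off was not taken, so they are named only as a description. PCDHB10 reached the filter's level in shRNA1 libraries only, which favoured a difference between the hairpins. DESeq2 called 0 members.

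PCDHGC3, the most abundant member, was higher with both hairpins. Its level was 134 and 151 CPM in the shRNA1 libraries, 146 and 157 CPM in the shRNA2 libraries, and 94.7 and 96.3 CPM in the controls. All 4 hairpin libraries lay above both controls, and the groups of the hairpins overlapped each other. The means were 143 ± 12.3 CPM (SD, n = 2), 151 ± 8.28 CPM and 95.5 ± 1.15 CPM in the same order, from 1765 to 5241 counts per library. The log2 fold change was 0.58 ± 0.06 for shRNA1 (adjusted p = 1.2e-06), 0.66 ± 0.06 for shRNA2 (adjusted p = 2.2e-07) and 0.62 ± 0.05 for their mean, a 1.54-fold difference. Divided by the kb of its exon held by no other gene, its whole level was 29.4, 43.9 and 46.6 CPM in shControl, shRNA1 and shRNA2. These values were the highest of the family in each group, but the level divided may include reads from constant exons.

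PCDHGC5, the last gene of the gamma cluster, showed the difference for which the family was picked, and it is given without a test. Counts were 135, 183, 341 and 216 in the hairpin libraries and 17 and 38 in the controls. These are 9.07, 9.57, 9.48 and 10.3 CPM against 0.912 and 1.36 CPM, an 8.25-fold difference in the fit. The 4 hairpin libraries fell within a narrow range far above both controls. PCDHGC5 lies downstream of the PCDHGC3 variable exon and runs into the same constant exons, which make up 43.7% of its exon bases, so its count was also set against that of PCDHGC3. For every 100 PCDHGC3 counts there were 6.77, 6.32, 6.51 and 6.57 PCDHGC5 counts in the hairpin libraries, and 0.963 and 1.41 in the controls. This ratio rests on the same counts as the difference above and adds no separate support. PCDHGC4, which stands between them, had 0 to 5 counts in each library, too few to compare. Between the hairpins PCDHGC5 differed by a log2 fold change of -0.09 ± 0.19.

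**Figure D3:**
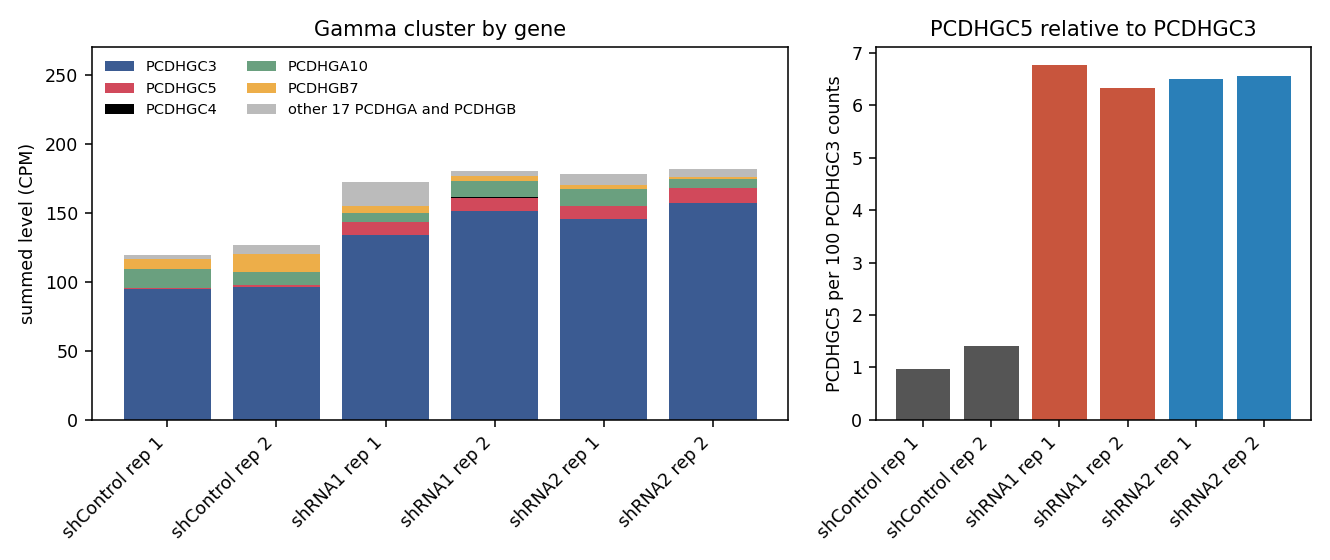
Left, level of the gamma cluster in each library (CPM), divided into PCDHGC3, PCDHGC5, PCDHGC4, PCDHGA10, PCDHGB7 and the other 17 genes. Right, PCDHGC5 counts per 100 PCDHGC3 counts, between 6.32 and 6.77 in the 4 hairpin libraries and at 0.963 and 1.41 in the controls.

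The A-type and B-type gamma genes, whose variable exons lie upstream of the C-type genes, had no common direction. PCDHGB7, a B-type gene, had 81 and 75 counts with shRNA1, 104 and 31 with shRNA2, and 128 and 361 in the controls. These are 5.44 and 3.92 CPM, 2.89 and 1.48 CPM, and 6.87 and 12.9 CPM, so that both controls lay above all hairpin libraries, and shControl replicate 2 stood far above the rest. It was lower in the mean of both hairpins (log2 fold change -1.62 ± 0.32, adjusted p = 0.00321) and with shRNA2 (-2.14 ± 0.40, adjusted p = 0.00257). The mean stayed past the threshold when any library was left out (-2.0 to -1.09). The shRNA2 value was -2.75 without shRNA2 replicate 1 and -1.62 without shControl replicate 2. With shRNA1 it was -1.09 ± 0.39 (adjusted p = 0.0481). That call was lost without shRNA1 replicate 1 (-1.32, adjusted p = 0.132), shRNA1 replicate 2 (-0.86, 0.299) or shControl replicate 2 (-0.56, 0.264), and with a replicate block (-1.11, 0.104).

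PCDHGB6, another B-type gene, was highest with shRNA2. Its level was 0.54 and 0.84 CPM with shRNA1, 3.39 and 1.87 CPM with shRNA2, and 0.43 and 0.39 CPM in the controls. All hairpin libraries lay above both controls, the shRNA2 libraries by more, and 122 of its 204 counts came from shRNA2 replicate 1. Its log2 fold change from shControl was 0.76 ± 0.54 for shRNA1 and 2.68 ± 0.48 for shRNA2, given without a test because no control library reached the filter's level. The difference between the hairpins was -1.92 ± 0.46 (adjusted p = 0.590).

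PCDHGA10, an A-type gene, was at 6.25 and 11.7 CPM with shRNA1, 12.3 and 6.51 CPM with shRNA2, and 13.8 and 9.63 CPM in the controls. The 3 groups overlapped, and the log2 fold change in the mean was -0.33 ± 0.42 (adjusted p = 0.566). PCDHGB2 was at 0.81, 0.42, 0.81 and 1.10 CPM in the hairpin libraries and 0.70 and 0.29 CPM in the controls (0.66 ± 0.60, adjusted p = 0.372). PCDHGA6 was at 0.94, 0.58, 0.81 and 0.33 CPM against 0.59 and 0.11 CPM (1.02 ± 0.75, adjusted p = 0.262). Hairpin and control libraries overlapped in both genes.

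Several A-type and B-type genes were counted mainly in 1 library. In the order of the hairpin libraries and then the controls, PCDHGB1 had 125, 1, 8, 2, 0 and 2 counts. PCDHGA8 had 73, 4, 5, 2, 6 and 0 counts, again mostly in shRNA1 replicate 1. PCDHGA9 had 11, 4, 11, 5, 4 and 144 counts, mostly in shControl replicate 2. PCDHGB1 and PCDHGA8 did not pass the filter. PCDHGA9 was tested, and its log2 fold change of -2.93 ± 1.30 (adjusted p = 0.138) was 0.72 without shControl replicate 2 and -3.84 (adjusted p = 1.5e-05) without shControl replicate 1. In each of these 3 genes 1 library was high and the other library of its group was low.

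**Figure D4:**
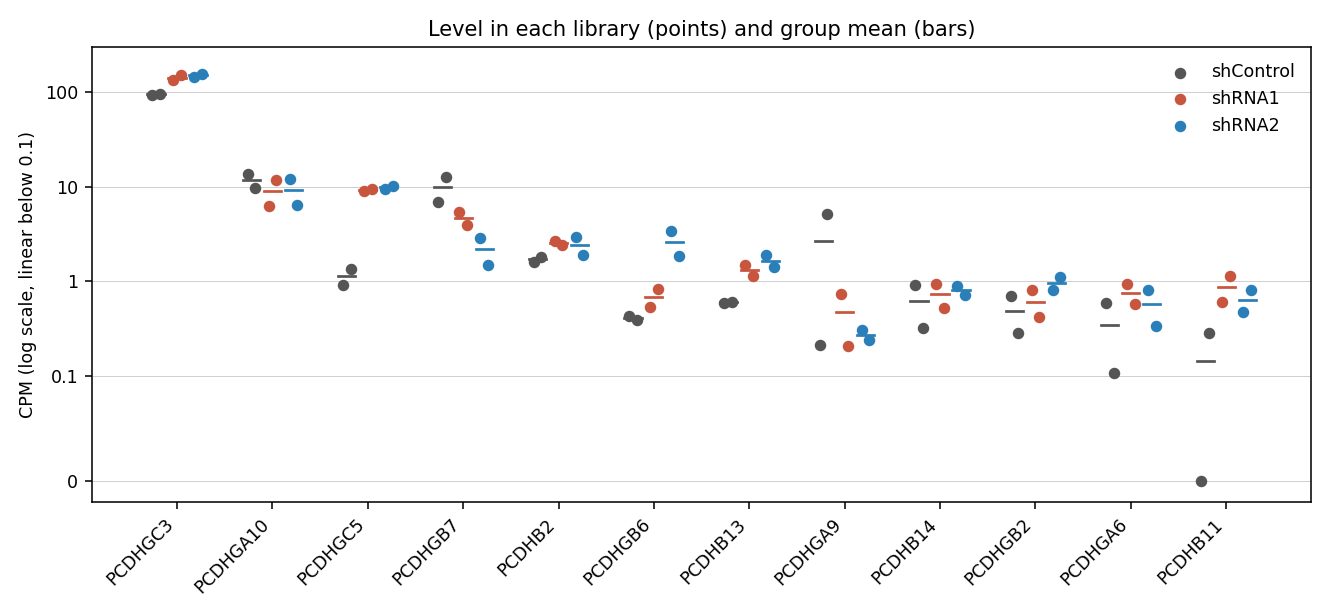
Level of the named members in each library (points, CPM on a log axis that is linear below 0.1) with the group means (bars). All 4 hairpin points lie above both control points for PCDHGC3 and PCDHGC5 and below them for PCDHGB7, and the groups overlap for PCDHGA10.

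Summed over all 22 genes the gamma cluster had 172 and 180 CPM with shRNA1, 178 and 181 CPM with shRNA2, and 119 and 127 CPM in the controls. If each read in a constant exon was counted once, the sum does not depend on how such reads were divided among gamma genes. Whether they were counted once, dropped or counted for several genes is not given. All 4 hairpin libraries lay above both controls. The means were 176 ± 5.69, 180 ± 2.60 and 123 ± 5.28 CPM (SD, n = 2), and the hairpin mean was 1.44 times that of shControl. Of the difference of 54.8 CPM, PCDHGC3 made up 51.6 CPM and PCDHGC5 8.48 CPM, and the 19 A-type and B-type genes together -5.38 CPM. Those 19 genes summed to 28.8, 19.1, 22.6 and 13.5 CPM in the hairpin libraries and 23.6 and 29.2 CPM in the controls, which overlap. PCDHGC3 held 77.2% of gamma counts in shControl, 81.3% in shRNA1 and 83.7% in shRNA2. The shares were 77.5%, 81.4% and 84.4% when each gene's whole count was divided by the kb of its own exon bases. Those counts may include reads from constant exons, so this scaling does not settle how such reads were divided.

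The beta cluster was expressed at a low level and was higher in sum with the hairpins. Its 16 genes summed to 8.26 and 8.0 CPM with shRNA1, 9.81 and 6.70 CPM with shRNA2, and 4.13 and 3.67 CPM in the controls. The lowest hairpin library lay above the higher control, and the hairpin mean was 2.10 times the control mean (8.13 ± 0.186 and 8.25 ± 2.2 CPM against 3.90 ± 0.323 CPM, SD, n = 2). PCDHB2 was the most abundant beta gene, with 45% of beta counts in shControl, 31.2% in shRNA1 and 29.8% in shRNA2, and also the highest per kb of its own exon bases (0.415, 0.617 and 0.592 CPM). It was at 2.69, 2.41, 2.97 and 1.91 CPM in the hairpin libraries and 1.61 and 1.82 CPM in the controls. The groups did not overlap, but the difference of 0.54 ± 0.29 (log2) did not pass the test (adjusted p = 0.126).

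PCDHB13 had 22, 22, 68 and 30 counts in the hairpin libraries and 11 and 17 in the controls, or 1.48, 1.15, 1.89 and 1.44 CPM against 0.59 and 0.61 CPM. All hairpin libraries were above both controls. The log2 fold change was 1.30 ± 0.41 in the mean (adjusted p = 0.0140), 1.12 for shRNA1 (adjusted p = 0.0582) and 1.47 for shRNA2 (adjusted p = 0.0122). The call in the mean was lost without shRNA2 replicate 1 (1.18, adjusted p = 0.0672), shControl replicate 1 (1.27, 0.0687) or shControl replicate 2 (1.31, 0.0721). The shRNA2 call was lost without the same libraries (1.24, 1.45 and 1.49, with adjusted p-values of 0.131, 0.0548 and 0.0578).

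PCDHB11 rested on fewer counts: 9, 22, 17 and 17 in the hairpin libraries and 0 and 8 in the controls. In CPM these were 0.60, 1.15, 0.47 and 0.81 against 0 and 0.29, again without overlap. The log2 fold change was 2.42 for shRNA1, 1.93 for shRNA2 and 2.17 ± 0.84 in the mean, given without a test because no control library reached the filter's level. The value in the mean ran from 1.37 without shControl replicate 1 to 7.04 without shControl replicate 2, which leaves a control with no counts.

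PCDHB10 was seen chiefly with shRNA1, at 8 and 11 counts, against 3 and 2 with shRNA2 and 0 and 2 in the controls. Only the shRNA1 libraries reached the filter's level. The log2 fold change for shRNA1 was 3.57 ± 1.26, and 2.87 without shControl replicate 1 or 6.62 without shControl replicate 2. PCDHB14 was at 0.94, 0.52, 0.89 and 0.72 CPM in the hairpin libraries and 0.91 and 0.32 CPM in the controls, which overlap (0.36 ± 0.59 in the mean, adjusted p = 0.630). The log2 fold change in the mean was 1.85 ± 0.96 for PCDHB9 and 0.97 ± 0.84 for PCDHB16, both also below the filter's level in the controls.

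Of the 7 beta genes with counts too low to test, PCDHB7 had the most. It had 6, 12, 17 and 5 counts in the hairpin libraries and 0 in both controls. Set against a floor of 3 counts over the control group (0.0643 CPM), the pooled hairpin level of 0.440 CPM was at least 6.85-fold higher. Genes set against this floor were picked for having no control counts, so they had to look higher, and their folds are descriptions. The gamma gene PCDHGB3, with 3, 2, 6 and 6 hairpin counts and 0 control counts, was at least 2.91-fold higher on the same floor. PCDHB6 had 8 and 4 counts with shRNA2 and 0 in the shRNA1 and control libraries. PCDHB12 (7 counts in all) and PCDHGA12 (6) also had none in the controls. The other untested beta genes had counts in a control library. PCDHB15 had 4, 1, 16 and 3 hairpin counts against 7 and 2, and PCDHB3 had 4, 0, 13 and 4 against 3 and 3. PCDHB8 had 1, 8, 6 and 5 against 2 and 0, and PCDHB4 had 6, 0, 9 and 0 against 0 and 2. Of the 12 untested gamma genes with counts, 2 had none in the controls.

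**Figure D5:**
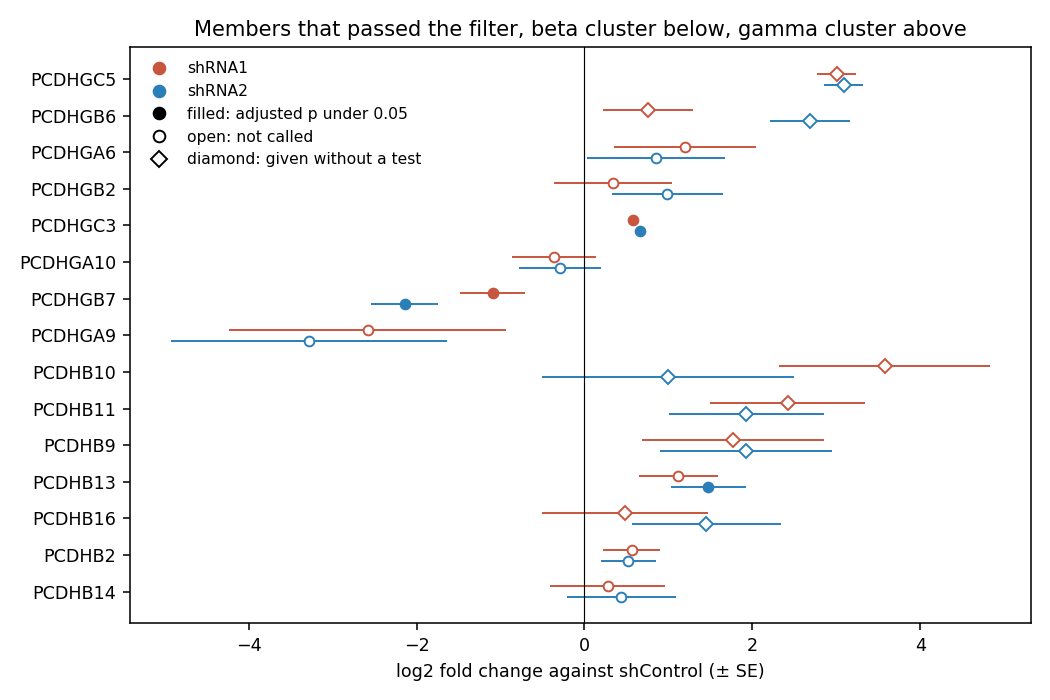
Log2 fold change of each of the 15 members that passed the filter against shControl, with its standard error, for shRNA1 and shRNA2. Filled points passed the test, open circles did not, and diamonds mark PCDHGC5 and the 5 members that reached the filter in hairpin libraries only, given without a test. PCDHGC3 and PCDHGC5 have similar values for both hairpins (0.58 and 0.66, and 3.0 and 3.09), and PCDHGB6 lies at 0.76 for shRNA1 and 2.68 for shRNA2.

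The alpha cluster was close to silent. No gene of it was tested, 10 of 16 had any counts, and the sum over the cluster was 6, 8, 27 and 6 counts in the hairpin libraries and 2 and 0 in the controls. Both control counts were of PCDHA3 in shControl replicate 1, and 27 of the 47 hairpin counts came from shRNA2 replicate 1, the largest library. No single alpha gene had over 7 counts in a library. At this depth the level of a single alpha gene could not be compared between groups.

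The lists that follow were drawn up with earlier results of these data known and describe genes around the family. Among 28 genes known for the control of these promoters 27 were tested, and 11 were higher, 6 lower and 10 not called in the mean of both hairpins, with a median log2 fold change of 0.07. The share called was close to the 57.5% of all genes, as it was for the partners and the neighbouring genes described after them. CTCF, the insulator protein that binds the promoters, was at 71.5, 71.4 and 70.4 CPM in shControl, shRNA1 and shRNA2 (-0.01 ± 0.05, adjusted p = 0.845). Of the cohesin subunits, RAD21 fell (-0.35 ± 0.03, adjusted p = 4.7e-08), STAG2 fell (-0.35 ± 0.05, 3.7e-05), SMC1A rose (0.50 ± 0.04, 1.2e-07), STAG1 rose (0.17 ± 0.07, 0.0476) and SMC3 was not called (0.00 ± 0.05, 0.954). DNMT1, the maintenance DNA methyltransferase, rose from 96.5 CPM to 197 and 198 CPM (1.03 ± 0.04, adjusted p = 7.4e-12). UHRF1, which brings DNMT1 to replicated DNA, rose from 64.5 CPM to 139 and 141 CPM (1.11 ± 0.05, adjusted p = 8.3e-11). TRIM28, a corepressor that recruits histone methylation, rose from 279 CPM to 463 and 488 CPM (0.77 ± 0.03, adjusted p = 2.8e-11). DNMT3B, a methyltransferase that sets new methylation, fell from 53.3 CPM to 29.3 and 27.6 CPM (-0.91 ± 0.07, adjusted p = 2.1e-08). The methylation enzymes thus moved in both directions, and the part of any of them in the protocadherin values was not tested.

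Of 25 genes known as partners of the protocadherin tails or as acting after them, 24 were tested: 5 were higher, 9 lower and 10 not called (median -0.09). WASF2, a subunit of the WAVE complex that drives actin branching, fell from 391 CPM to 157 and 161 CPM (-1.30 ± 0.03, adjusted p = 4.0e-14). FYN, a Src-family kinase, fell from 25.3 CPM to 12.0 and 10.7 CPM (-1.16 ± 0.10, adjusted p = 7.7e-08). RAC1, the GTPase that activates the WAVE complex, fell from 390 CPM to 304 and 302 CPM (-0.37 ± 0.03, adjusted p = 1.2e-07). PTPN11, the phosphatase SHP2, rose from 104 CPM to 146 and 145 CPM (0.48 ± 0.04, adjusted p = 1.3e-07). Of 12 protocadherins outside the clusters, 6 had no counts and 2 were tested: PCDH7 rose from 1.81 CPM to 4.26 and 4.63 CPM (1.28 ± 0.26, adjusted p = 5.9e-04), and PCDH1 was not called in the mean (-0.30 ± 0.23, adjusted p = 0.289) but was lower with shRNA2 alone (-0.69 ± 0.27, adjusted p = 0.0456).

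Genes that lie beside, between or inside the clusters were also read. The list includes pseudogenes of the clusters, among them the member PCDHA14, which had no counts. Of 25 such genes, 14 were tested: 6 were higher, 2 lower and 6 not called, with a median of 0.10. The histidyl-tRNA synthetase HARS1 rose from 40.9 CPM to 86.4 and 87.0 CPM (1.08 ± 0.06, adjusted p = 2.3e-10). The respiratory complex I subunit NDUFA2 (1.13 ± 0.08) and the splicing factors IK (0.72 ± 0.05) and ZMAT2 (0.76 ± 0.06) were also higher. Of the genes between the beta and gamma clusters, TAF7, a subunit of the general transcription factor TFIID, was at 57.1, 62.1 and 63.8 CPM (0.14 ± 0.06, adjusted p = 0.0748) and the carrier gene SLC25A2 had 4 counts in all. DIAPH1, an actin-nucleating formin downstream of the gamma cluster, rose from 182 CPM to 244 and 251 CPM (0.44 ± 0.04, adjusted p = 9.5e-08). The genes that fell were FCHSD1 (-0.22 ± 0.08, adjusted p = 0.0231) and ARAP3 (-0.59 ± 0.16, adjusted p = 0.00534).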

How the data were processed

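The deposited table holds whole-number counts per gene for 6 libraries, named by Ensembl ID and symbol. Per the submitters' processing notes, the authors used FastQC 0.11.9, Trim Galore 0.6.7, HISAT2 2.2.1 and StringTie 2.2.1 with hg38. The counting tool, annotation release, strand setting and treatment of multi-gene reads are not given in these sources. The fits were run in edgeR 4.0.16 (R 4.3.3, limma 3.58.1), with DESeq2 1.42.0 as an alternative. Genes passed filterByExpr by group (16039 of 60649), and TMM factors scaled the libraries. The robust quasi-likelihood model of edgeR gave each group a mean from its own libraries, and all 6 libraries shared the estimates of spread. Calls are Benjamini-Hochberg adjusted p under 0.05 over all tested genes. Errors of fold changes are standard errors. Levels are CPM. Members with a mean of at least 0.5 CPM were named with values in every library, and other tested members where called. The filter asks for about 0.48 CPM in 2 libraries. Up to 4 tested genes of each list with the smallest p were named. The other genes named (PCDHB3, PCDHB4, PCDHB6, PCDHB7, PCDHB8, PCDHB9, PCDHB12, PCDHB15, PCDHB16, PCDHGA12, PCDHGB3, PCDHGC4, CTCF, cohesin subunits, DIAPH1, FCHSD1, ARAP3, TAF7, SLC25A2 and single markers) were chosen after their values were seen. Members and lists were chosen with earlier results of these data known. Exons and variable-exon ends come from GENCODE 29, and promoters from RefSeq. The code was tested on simulated data.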

Additional observations from a re-analysis of the deposited data

How the results depend on the processing

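Counted over the 15 members that passed the filter, those given without a test included, the number called in the mean of both hairpins was 6. In that comparison 57.5% of all tested genes were called. Over the settings that kept all libraries, 5 to 7 members were called. The number of all genes called also moved with the setting. It was 9313 of 30218 with no filter, 8959 of 13749 with a stricter filter and 6332 of 16039 in a test against a fold of 1.2. The members counted changed with the setting, to 8 with a stricter filter and 44 with none, and also when a library was left out. The counts include PCDHGC5 and members that reached the filter in hairpin libraries only, so they only describe the settings. For each hairpin alone and between the hairpins, the share of all genes called was taken in the main fit only. For shRNA1 the number called was 5, where 52.4% of all genes were called, but 3 with DESeq2 and 3 in a test against a fold of 1.2. For shRNA2 it was 5, where 52.8% of all genes were called, and 6 with no filter on low counts. Between the hairpins it was 0, but 3 with no filter on low counts (PCDHGA8, PCDHGB7 and PCDHGB6), and 0 to 1 with single libraries left out. Replicate numbers did not pair the libraries (correlations of replicate differences 0.01, -0.03 and -0.00), and with a replicate block the counts for shRNA1, shRNA2 and between the hairpins were 4, 5 and 0. Library totals in place of TMM factors moved the median of all genes from -0.03 to -0.18 and PCDHGC3 from 0.62 to 0.47. Uncalled values changed sign when a library was left out, over these ranges of log2 fold change. In the mean, PCDHB14 ran from -0.26 to 1.23 and PCDHGA9 from -3.84 to 0.72. For shRNA1, PCDHB14 ran from -0.34 to 1.15, PCDHGB2 from -0.21 to 1.06, PCDHGA9 from -3.67 to 1.08 and PCDHGA10 from -0.88 to 0.031. For shRNA2, PCDHB14 ran from -0.18 to 1.31, PCDHGA9 from -4.19 to 0.35, PCDHGA10 from -0.85 to 0.071 and PCDHGA6 from -0.011 to 2.39. Between the hairpins, PCDHB11 ran from -0.064 to 0.90 and PCDHGC3 from -0.18 to 0.0017. The cause was not tested. With a library left out, the lone library of its group is assumed to vary like the others. Depth limits the alpha genes and most beta genes, where 1 library adds few counts.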
